A study of Mus musculus with 6 samples.

Results

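Bcl6 binding sites were examined at 243 narrow peaks that lay beside a listed gene start without covering it, although some covered another annotated start. They were chosen from the authors' peak table and gene list by 2 values. The peak centre had to be more than 1 kb and at most 5 kb from the nearest listed transcription start site (TSS), and the peak had to be at most 2 kb wide. This gave 243 of 3878 peaks (6.27%), and 57.3% of the 424 peaks of any width in that distance range. Width and distance are therefore a description of how the set was built. The other values come from the same pooled precipitation, so they are described here and not tested.

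The cells were A2 lox.Cre Bcl6 mouse embryonic stem (ES) cells, a line in which tetracycline induces a Bcl6 transgene. They were differentiated into cortical progenitors in medium with 400 ng/ml cyclopamine, an inhibitor of hedgehog signalling, and given 1 µg/ml doxycycline for 24 h at day 12. The 6 libraries, all from induced cells, formed 2 groups: 3 from precipitation with a Bcl6 antibody (ChIP) and 3 of input DNA. Peaks were called on pooled ChIP against pooled input, which leaves no value with a replicate error. Intervals below cover counting over peaks, which are not replicates. Uninduced cells were not analysed here, so binding of the transgene product and of endogenous Bcl6 cannot be told apart, and a peak list holds no expression with which to check the cell type.

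The pooled ChIP kept 11718276 tags after 1 tag per position was allowed, against 5048582 tags for the pooled input. The 243 narrow proximal peaks covered 320.931 kb and held 12620 of the retained ChIP tags, which is 0.108% (exact 95% interval 0.106 to 0.110%). They lay on 20 chromosomes. The set held 34 of all 386 peaks on chromosome 11, 27 of 327 on chromosome 7 and 21 of 227 on chromosome 8. These were 8.81%, 8.26% and 9.25% of the peaks there, beside 6.27% over all chromosomes. Chromosome 4 gave 18 of 284 (6.34%) and chromosome 2 gave 17 of 303 (5.61%). The list named 233 different nearest genes for the 243 peaks.

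Bcl6 is a transcriptional repressor with a BTB domain, through which it recruits corepressors, and with zinc fingers that bind DNA. It is best known from germinal centre B cells, and in the developing cortex it promotes the conversion of progenitors to neurons. The stretch beside a gene start can hold the first intron, upstream control elements or a further promoter of the same gene or of a neighbour. The word upstream means before the listed TSS on the gene's own strand, and downstream means after it. A gene named for a peak is the nearest in the list, with no measure here of whether Bcl6 acts on it.

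Some narrow proximal peaks covered a gene start that the list had not used. Promoter windows of RefSeq on GRCm38.p6, the assembly of mm10, reach from 250 bases before to 50 bases after a gene start. The 6 windows below are shown because a narrow proximal peak lay over all 300 bases of each. Capitals mark fixed motifs on either strand, and a GC box on the other strand reads CCGCCC. Gm36470, a predicted gene, starts under the 55.2-fold peak of the cell cycle kinase gene Cdk6 (chr5:3342203-3342502, minus strand), where the capitals are a GC box and an E-box. Gm51419 starts under the 45.3-fold peak inside Npas3, a gene for a bHLH-PAS transcription factor (chr12:53252889-53253188, plus strand), and its 6 capital runs are GC boxes. Mia2, listed under its older symbol Ctage5, holds the summit of its 39.0-fold peak inside the window (chr12:59131231-59131530, plus strand) and none of the motifs. In the window of Nr6a1, which encodes an orphan nuclear receptor (chr2:38926412-38926711, minus strand), the capitals are the 1 match to the palindrome TTCNNNGAA that STAT factors and Bcl6 bind. The last 2, under peaks of 26.6-fold and 14.6-fold, were added after their values were seen. The printed windows therefore do not represent how often motifs occur. Cln3, a gene for a lysosomal membrane protein, starts 5.5 bp from the centre of the peak listed for Apobr (chr7:126583187-126583486, minus strand), and its window holds a palindrome, 2 E-boxes and 2 GC boxes. Klf15, which encodes a Krüppel-like factor (chr6:90462326-90462625, plus strand), holds 3 E-boxes and 1 GC box.
Gm36470: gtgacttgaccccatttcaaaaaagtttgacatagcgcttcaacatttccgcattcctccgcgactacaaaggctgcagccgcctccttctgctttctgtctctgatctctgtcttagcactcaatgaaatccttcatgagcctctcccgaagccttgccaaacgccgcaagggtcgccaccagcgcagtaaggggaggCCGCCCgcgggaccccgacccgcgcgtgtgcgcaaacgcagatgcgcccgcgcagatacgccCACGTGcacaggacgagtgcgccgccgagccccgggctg
Gm51419: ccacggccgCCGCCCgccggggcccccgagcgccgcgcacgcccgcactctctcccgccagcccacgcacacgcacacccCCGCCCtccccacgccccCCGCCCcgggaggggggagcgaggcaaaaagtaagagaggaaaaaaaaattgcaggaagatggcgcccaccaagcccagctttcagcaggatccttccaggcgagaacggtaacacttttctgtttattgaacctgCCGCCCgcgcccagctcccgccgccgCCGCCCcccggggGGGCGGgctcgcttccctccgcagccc
Mia2: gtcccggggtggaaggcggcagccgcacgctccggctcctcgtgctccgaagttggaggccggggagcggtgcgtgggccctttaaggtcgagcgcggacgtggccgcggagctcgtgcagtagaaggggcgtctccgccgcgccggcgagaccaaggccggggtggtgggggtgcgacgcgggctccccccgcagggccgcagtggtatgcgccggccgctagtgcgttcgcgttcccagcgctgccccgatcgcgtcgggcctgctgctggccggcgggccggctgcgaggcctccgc
Nr6a1: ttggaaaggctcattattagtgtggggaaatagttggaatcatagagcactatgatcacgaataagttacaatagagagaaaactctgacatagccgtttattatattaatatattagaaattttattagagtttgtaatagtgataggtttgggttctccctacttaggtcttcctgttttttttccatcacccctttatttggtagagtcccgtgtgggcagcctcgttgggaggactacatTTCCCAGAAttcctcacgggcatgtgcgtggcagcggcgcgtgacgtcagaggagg
Cln3: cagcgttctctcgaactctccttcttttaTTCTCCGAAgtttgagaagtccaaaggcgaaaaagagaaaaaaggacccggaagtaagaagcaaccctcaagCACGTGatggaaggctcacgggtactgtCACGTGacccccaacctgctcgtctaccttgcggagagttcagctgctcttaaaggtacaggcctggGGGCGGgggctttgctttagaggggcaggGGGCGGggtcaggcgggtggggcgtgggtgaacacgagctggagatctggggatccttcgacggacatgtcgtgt
Klf15: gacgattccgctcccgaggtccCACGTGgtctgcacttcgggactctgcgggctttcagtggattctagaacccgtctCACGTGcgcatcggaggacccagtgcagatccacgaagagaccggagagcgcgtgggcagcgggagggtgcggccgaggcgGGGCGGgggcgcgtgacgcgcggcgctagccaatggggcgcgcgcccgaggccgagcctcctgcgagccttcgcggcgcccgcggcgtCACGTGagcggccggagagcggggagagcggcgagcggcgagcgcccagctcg

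Overlap with such windows was found for a minority of the narrow proximal peaks. Of the 239 on chromosomes used for this comparison, 36 overlapped a RefSeq promoter window (15.1%, exact 95% interval 10.8 to 20.2%). The window belonged to the listed gene for 22 of them and only to another gene for 14. A gene start of the table lay within 1 kb of the centre of 42 peaks (17.6%), so the distance to the listed TSS is not always the distance to the nearest annotated start. Both counts are minimum values, since the promoter table does not hold every gene: for 51 peaks its nearest start lay over 5 kb away although a listed TSS was closer. The share over a window was 81.2% for narrow peaks within 1 kb of a TSS (79.3 to 83.1%), 11.3% for narrow peaks 5 to 50 kb away (9.05 to 13.9%) and 41.1% for wide peaks 1 to 5 kb away (33.8 to 48.7%). Wide means over 2 kb, and a wider peak covers more sequence. When the summit rather than any part of the peak had to lie in a window, 12 narrow proximal peaks qualified.

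Motifs were counted per peak in the windows that 36 narrow proximal peaks overlapped and, beside them, in those that 1380 narrow peaks within 1 kb of a TSS overlapped. The whole window was searched even where a peak covered part of it, so a counted motif can lie outside the peak. A full window lay inside 34 of the 36. The Topors peak held 15 bases of its window, and the E-box and GC box counted for it lie outside the peak. The E-box CACGTG, bound by bHLH factors such as Myc, was found at 11 narrow proximal peaks (30.6%, exact 95% interval 16.3 to 48.1%), against 189 of the narrow peaks within 1 kb (13.7%, 11.9 to 15.6%). Among all 32841 distinct windows it occurred in 7.15%. GGGCGG, the GC box bound by Sp and Krüppel-like factors, was found at 21 (58.3%, 40.8 to 74.5%), against 1116 (80.9%, 78.7 to 82.9%), and in 35.7% of all windows. The palindrome TTCNNNGAA was found at 3 (8.33%), against 121 (8.77%), and in 8.30% of all windows. Its Bcl6 core form TTCCTAGAA, which the longer pattern includes, was found at 0 narrow proximal peaks, against 6 (0.435%), and in 0.411% of all windows. The AP-1 site TGANTCA was found at 1 (2.78%), against 42 (3.04%), and in 7.81% of all windows. The windows of the narrow proximal peaks had a median GC content of 60.2% and a median of 19 CpG dinucleotides, against 65.3% and 26 for those of the narrow peaks within 1 kb. These windows are a small share of the set, base composition differed between them, and no difference in motif share was tested.

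Enrichment over input varied widely within the set. The median was 21.28-fold (exact 95% interval 19.95 to 22.61), the quartiles were 17.7 and 26.6, and the range was 10.6 to 117.9. A count of 181 peaks (74.5%) lay between 15-fold and 30-fold. Tag counts had a median of 47 (44 to 50) and ran from 22 to 239, so a typical value rests on about 47 precipitated fragments of pooled libraries. The p-value score, which is −10 log10 of the peak caller's p, had a median of 62.7, close to the minimum of 50.03 that the caller let through, and 104 peaks (42.8%) scored under 60. At least 30-fold enrichment was reached by 37 peaks (15.2%, 11.0 to 20.4%), where the same threshold held 17.6% of all peaks. An empirical false discovery rate (FDR) of at most 5% held 242 of them, where it held 99.0% of all peaks.

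**Figure D1:**
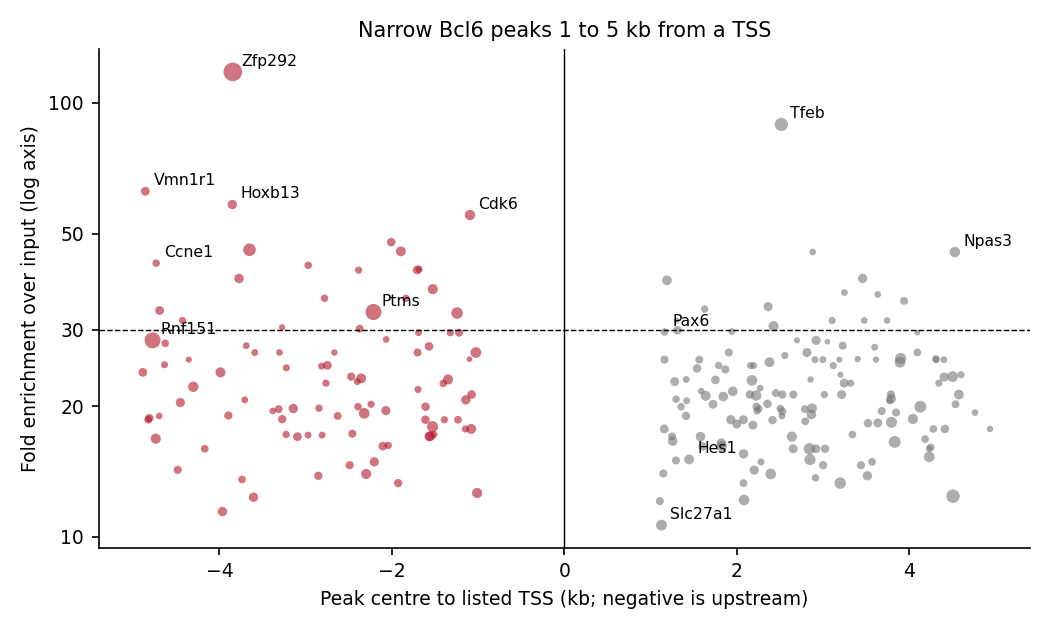
Fold enrichment over input (log axis) of the 243 narrow peaks 1 to 5 kb from a TSS against the signed distance of the peak centre from the listed TSS in kb, with point area following the tag count, upstream peaks in red and downstream peaks in grey. The dashed line is 30-fold, above which lie 22 upstream and 15 downstream peaks, and Zfp292 at 117.9-fold stands highest.

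Zfp292, which encodes a zinc finger protein, had the strongest site by fold, score, tag count and tag density. Its peak at chr4:34886112-34887497 lay 3844 bp upstream of the listed TSS in no coding gene's body, with 239 tags (exact 95% Poisson interval 210 to 271), a score of 728.2 and 117.9-fold enrichment. Over all peaks it ranked 14 by fold and 13 by score. It was also the 1 narrow proximal peak with an FDR over 5%, at 7.69%, a value that in this table does not follow the order of the scores. Its nearest neighbour among all peaks was 338992 bp away.

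Tfeb, the master transcription factor of lysosome genes, had the next highest enrichment, 89.2-fold with 120 tags and a score of 327.8, inside its gene body 2519 bp downstream (chr17:47787397-47789082). It ranked 29 by fold among all peaks. Below these a group of peaks with fewer tags followed. Vmn1r1, a vomeronasal receptor gene, had 62.6-fold with 53 tags at 4859 bp upstream. Hoxb13, a posterior homeobox gene, had 58.3-fold with 61 tags at 3850 bp upstream.

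Cdk6, the cyclin D-dependent kinase of the G1 phase, had 55.2-fold with 74 tags at chr5:3342129-3343472. The list places that peak 1093 bp upstream of a TSS, while the RefSeq gene table places its centre inside the Cdk6 body, and it covers the Gm36470 window shown above. Gm10146 had 47.8-fold with 51 tags and Tmem201, a gene for an inner nuclear membrane protein, 45.5-fold with 67 tags, both upstream and in no coding gene's body. The noncoding RNA gene Zfas1, listed as 1500012F01Rik, had 45.9-fold with 110 tags inside the body of its neighbour Znfx1. Npas3 and 1700021A07Rik shared a fold of 45.3, on 76 tags at Npas3 and on 30 tags (Poisson interval 20.2 to 42.8) at 1700021A07Rik.

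Fold and tag count ranked the peaks differently. Rnf151, a RING finger gene, had 176 tags over 1690 bp and a score of 279.4 but 28.4-fold enrichment. Its peak lay in the body of Ndufb10, 4775 bp upstream and 4988 bp upstream of Rpl3l, a ribosomal protein paralogue. Ptms, the parathymosin gene, had 178 tags, 91.8 tags per kb and 33.0-fold. Baz2a, which encodes a subunit of a complex that silences ribosomal DNA, had 97 tags and 20.0-fold. The weakest folds were those of Slc27a1, a fatty acid transporter gene whose peak was also 3407 bp from Nxnl1, with 10.6-fold on 82 tags, of Fbxo24 with 11.4-fold on 62 tags and of the MHC class I gene H2-M5 with 12.1-fold on 44 tags. All 3 weakest peaks held more tags than 1700021A07Rik did at 45.3-fold. By RefSeq, the Fbxo24 peak covers the promoter window of Lrch4, whose start lay 81 bp from the peak centre. The Slc27a1 peak covers promoter windows of Slc27a1 itself.

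At the bounds of the rule, the folds varied from peak to peak. The peaks named here are too few to compare the inside with the outside. Just inside the 1 kb bound lay Arhgap33 at 1024 bp with 26.6-fold, and just outside lay Rhpn2 at 984 bp with 33.0-fold and Ddx3x at 977 bp with 15.8-fold. Inside the 5 kb bound lay Zc3h12a at 4938 bp with 17.7-fold and 4930430O22Rik at 4888 bp with 23.9-fold, and beyond it Lrrc14 at 5026 bp with 15.3-fold and Nt5e at 5037 bp with 31.5-fold. At the width limit, Clec11a at 1984 bp had 12.2-fold and Ucp2 at 1980 bp had 19.8-fold, while Zcchc3 at 2006 bp had 16.0-fold and Ccdc84 at 2033 bp had 18.6-fold.

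The number of narrow proximal peaks per kb of distance was 68, 77, 58 and 40 for the bins from 1 to 2, 2 to 3, 3 to 4 and 4 to 5 kb. Median enrichment in the same bins was 21.5, 20.0, 21.9 and 21.7-fold, so the level showed no order with distance. The edge nearest the TSS was a median of 1995.5 bp from it. For the 210 peaks whose strand was known, 208 had their summit as well as their centre between 1 and 5 kb from the TSS.

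Fewer peaks lay upstream than downstream, 98 (40.3%, exact 95% interval 34.1 to 46.8%) against 145, a split like the 40.6% upstream of all peaks. Upstream peaks had a median enrichment of 22.4-fold (19.8 to 24.9), against 21.1-fold for downstream peaks (19.8 to 21.7), and the intervals overlap. At least 30-fold was reached by 22 of 98 upstream peaks (22.4%), among them Zfp292, Vmn1r1, Hoxb13, Cdk6 and Gm10146, against 15 of 145 downstream peaks (10.3%), among them Tfeb and Npas3. Tag counts had medians of 47 upstream and 46 downstream. Width had medians of 1228.5 bp upstream and 1364 bp downstream, and its part in the difference was not tested. Among the 31 peaks with a score of at least 100, 54.8% lay upstream (exact 95% interval 36.0 to 72.7%), an interval that also holds the share of the whole set.

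The sides differed in gene context, which the definition of the sides largely sets. The body of the listed gene held the centre of 25 upstream peaks (25.5%), against 115 downstream peaks (79.3%). Upstream peaks can lie in that body where the gene has a start before the listed one, as at Cdk6, Fam131a and Nyx. Another gene's body alone held 18 upstream peaks and 8 downstream peaks. No coding gene's body held the remaining 55 upstream peaks (56.1%) and 22 downstream peaks (15.2%). Exons, introns and untranslated regions were not told apart, since the gene table used here gives gene ends only.

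**Figure D2:**
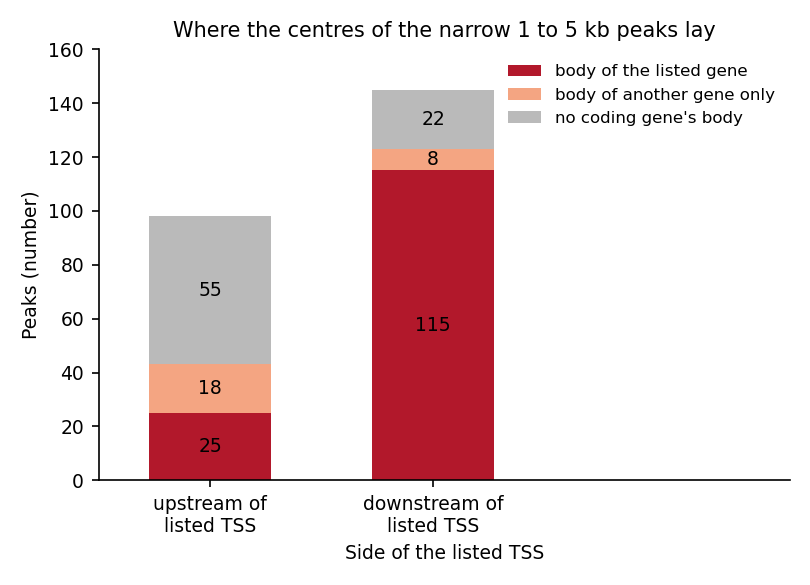
Number of narrow peaks 1 to 5 kb from a TSS whose centre lay in the body of the listed gene, in the body of another protein-coding gene only, or in none, for peaks upstream and downstream of the listed TSS. Of 98 upstream peaks 55 lay in no coding gene's body, and of 145 downstream peaks 115 lay in the body of the listed gene.

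Beside the other distance classes, the narrow proximal peaks were as enriched as narrow peaks at the TSS and had fewer tags. Median enrichment was 21.28-fold in both, against 23.6-fold (23.1 to 24.5) for the 710 narrow peaks 5 to 50 kb away and 17.1-fold for the 181 wide peaks 1 to 5 kb away. Tags per peak had a median of 47 (44 to 50), against 54 (52 to 55) for the 1741 narrow peaks within 1 kb, 43 for the narrow peaks 5 to 50 kb away and 154 for the wide peaks. Tag density had a median of 35.7 tags per kb of peak (34.8 to 37.3), against 39.9 (39.4 to 40.3) within 1 kb, 37.3 at 5 to 50 kb and 46.0 for wide peaks. The share at 30-fold or more, 15.2%, stood beside 14.9% within 1 kb, 25.9% (22.7 to 29.3%) at 5 to 50 kb and 10.5% for wide peaks. Scores of 100 or more were held by 31 narrow proximal peaks (12.8%), against 956 of all peaks (24.7%), a class that includes the wide ones.

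**Figure D3:**
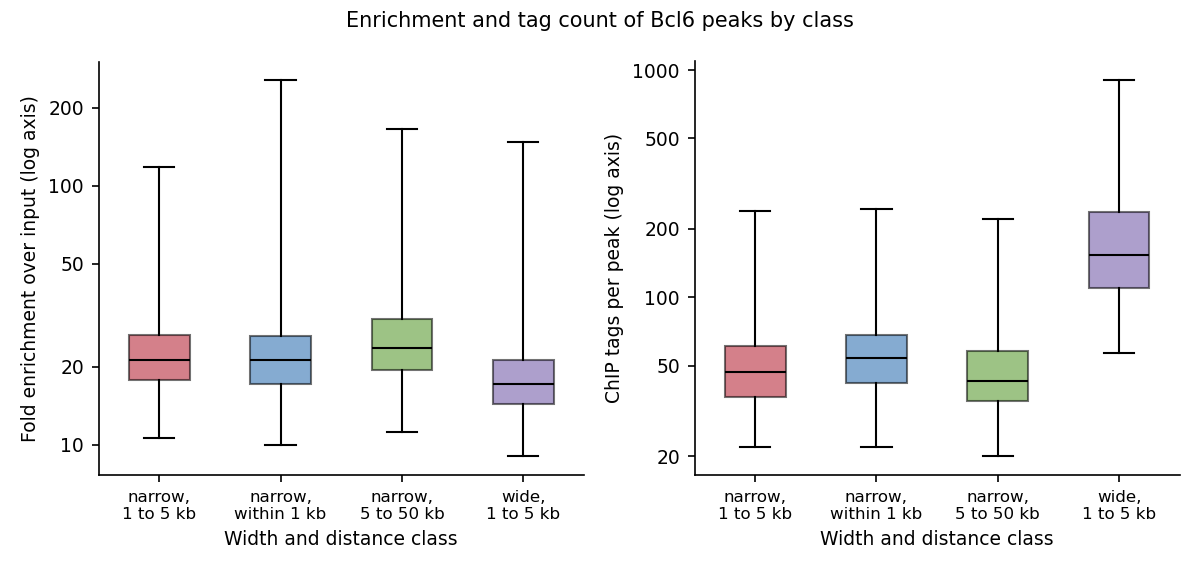
Fold enrichment over input (left) and ChIP tags per peak (right), both on log axes, for narrow peaks 1 to 5 kb from a TSS and for 3 other width and distance classes. Boxes give the quartiles, black lines the median and whiskers the lowest and highest peak, and the narrow 1 to 5 kb peaks have a median of 21.28-fold and 47 tags.

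Narrow proximal peaks often had company. Another peak centre lay within 10 kb of 85 of them (35.0%, exact 95% interval 29.0 to 41.3%), against 10.7% (9.27 to 12.2%) of narrow peaks within 1 kb, 19.3% (16.5 to 22.4%) of narrow peaks 5 to 50 kb away and 60.2% (52.7 to 67.4%) of wide peaks 1 to 5 kb away. Of those 85 neighbours, 70 had the same nearest gene, 50 lay within 1 kb of a TSS, 28 were over 2 kb wide and 21 were themselves narrow proximal peaks. A gene with peaks at and beside its TSS has them within 10 kb by their positions. At the other end, 64 peaks had no other within 100 kb. Peaks with a neighbour within 10 kb had a median of 19.8-fold (19.3 to 21.7) and those without had 21.8-fold (20.7 to 23.1), and 7 of 85 against 30 of 158 reached 30-fold.

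**Figure D4:**
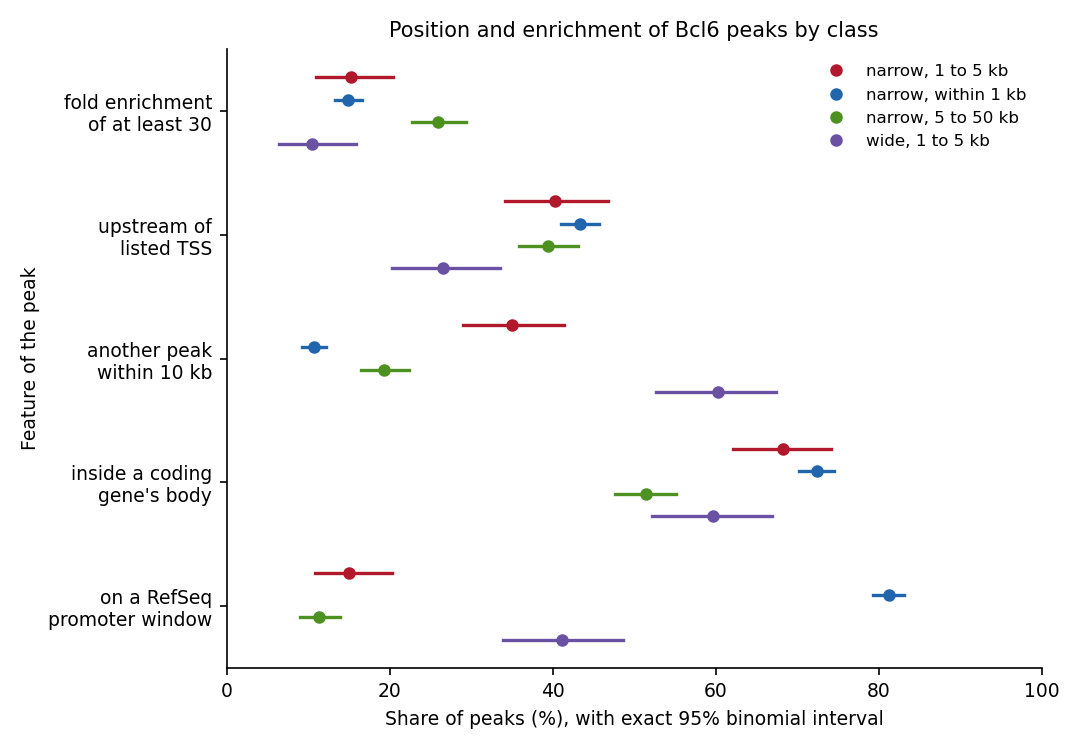
Share of peaks (%), with the exact 95% binomial interval, that had at least 30-fold enrichment, lay upstream of the listed TSS, had another peak within 10 kb, were centred in a coding gene's body or overlapped a RefSeq promoter window, for narrow peaks 1 to 5 kb from a TSS and for 3 other classes. The narrow 1 to 5 kb peaks have a neighbour in 35.0% and overlap a promoter window in 15.1% of cases.

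For 45 narrow proximal peaks (18.5%, exact 95% interval 13.8 to 24.0%) the same gene also had a peak centred within 1 kb of its TSS. The share was 20.0% for narrow peaks 5 to 50 kb away, 21.0% for wide peaks 1 to 5 kb away and 9.10% for all peaks. A wide peak centred farther off can still cover the TSS, as at Klf2, and was not counted. The 45 pairs let the flank be set beside the promoter of the same gene. The flanking peak had the higher fold in 23 of 45 pairs, with medians of 19.8-fold on the flank and 20.2-fold at the promoter. It had more tags in 11 pairs, with medians of 49 and 71, and more tags per kb in 14, and 15 of the promoter peaks were over 2 kb wide. The rule limits the width of the flanking peak only, which bears on the tag counts. In the 30 pairs with a promoter peak of at most 2 kb, the flanking peak had the higher fold in 15. Ptms had 33.0-fold and 178 tags 2212 bp upstream, against 15.0-fold and 88 tags at 101 bp. The flanking peaks of Ptms, Rcor2 and Slc17a9 also cover a RefSeq promoter window, so flank here means beside the listed TSS only. Lama5, a laminin chain gene, had 41.2-fold on the flank and 22.6-fold at the promoter. Hmgn2, which encodes a nucleosome-binding protein, had the weaker peak on the flank, with 18.7-fold and 72 tags on the flank against 31.3-fold and 244 tags at the promoter. For 134 peaks of the set (55.1%) the gene had no other peak at all, against 64.9% of all peaks. That share was 81.8% for narrow peaks within 1 kb, 53.0% for narrow peaks 5 to 50 kb away and 37.6% for wide peaks 1 to 5 kb away.

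Flanking peaks also fell on both sides of some genes. A peak of the same gene within 5 kb on the opposite side of the TSS was present for 27 narrow proximal peaks (11.1%). Elavl3, which encodes a neuronal RNA-binding protein, had 35.5-fold at 2780 bp upstream and 20.6-fold at 1420 bp downstream and no peak between. Kdm6b, an H3K27 demethylase gene, had 23.9-fold at 3987 bp upstream and 18.1-fold at 2189 bp downstream. Rax, an eye field homeobox gene, had 20.0-fold at 2392 bp upstream and 16.0-fold at 4233 bp downstream. Junb, an AP-1 subunit gene, had 17.0-fold at 1564 bp upstream beside a wide peak of 17.5-fold at 1644 bp downstream.

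Besides Elavl3, Kdm6b and Rax, 6 more genes held several narrow proximal peaks on 1 side. Among them, Agtrap had 19.7-fold at 2257 bp and 36.2-fold at 3637 bp downstream. Acpt, Rpl11, Sh3bp1 and Zc3h12a had 2 each, none over 27-fold. Zc3h12a encodes an RNase that limits inflammatory transcripts, and its peaks of 19.7-fold and 17.7-fold lay 2791 and 4938 bp downstream. Ribosomal protein genes were nearest to 8 narrow proximal peaks (3.29%), Rpl11 among them, and to 77 of all peaks (1.99%).

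Genes of pathways and cell types linked to Bcl6 or the cortex were read from 15 lists. A narrow proximal peak was nearest to 18 of the 425 listed genes (4.24%), beside 227 of 21900 protein-coding genes (1.04%). The lists were drawn up with these data in view and 40% of their genes had a peak of any kind, against 20.1% of all, so the count is a description. The list of the G1/S cell cycle gave 4 of 30 genes. Besides Cdk6 they were the cyclin genes Ccne1, with 42.7-fold on 39 tags at 4733 bp upstream, and Ccnd1, with 24.8-fold on 35 tags at 2161 bp downstream, and the proto-oncogene Mycn, with 16.0-fold on 49 tags at 3026 bp downstream of a TSS that had its own 23.3-fold peak.

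Cortical progenitor genes gave 3 of 32. Pax6, a homeobox regulator of radial glia, had its only peak at 1164 bp downstream inside the gene, of 29.7-fold on 40 tags. Sox9, an HMG-box regulator of neural stem cells, had 19.2-fold on 66 tags at 2867 bp downstream, beside 33.2-fold at the promoter. Hes1, the Notch effector that keeps progenitors undifferentiated and the 1 gene of 33 on the Notch list, had 15.1-fold on 68 tags at 1449 bp downstream, beside a wide peak of 13.0-fold on 162 tags centred 1219 bp upstream.

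Cortical neuron genes also gave 3 of 32, among them Elavl3, described above. Ncam1, a neural adhesion molecule gene, had 24.8-fold on 38 tags at 1792 bp downstream, with a further peak of 72.7-fold at 47.1 kb downstream.

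Signalling lists gave few genes. Wnt gave 1 of 55, the nuclear effector Tcf7l2 with 23.0-fold at 1754 bp downstream. The BMP and TGF-beta list gave 1 of 40, the ligand gene Bmp7, with 29.6-fold at 4096 bp downstream on 22 tags, which with that of Dip2b is the lowest tag count of the set. Sonic hedgehog gave 1 of 15, the receptor gene Ptch1, with 16.2-fold at 1827 bp downstream next to 17.0-fold at 756 bp upstream. The FGF and IGF list gave 2 of 37, the feedback inhibitor gene Spred2 with 22.2-fold at 4302 bp upstream and the ligand gene Igf2 with 25.6-fold at 1567 bp downstream. That Igf2 peak also covers a RefSeq promoter window of Igf2 itself.

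Klf2, which encodes a Krüppel-like factor and stands on the lymphoid target list (1 of 25) and the pluripotency list (1 of 24), had 24.7-fold on 35 tags at 2814 bp upstream. A peak 6964 bp wide with 385 tags and 13.6-fold covered its start. BTB zinc finger and Krüppel-like factor genes gave 2 of 25, Klf10 with 19.0-fold at 1413 bp downstream and Klf15 with 14.6-fold at 2488 bp upstream. No narrow proximal peak was nearest to a gene of the lists for cytokine feedback and STAT (0 of 26), Bcl6 corepressors (0 of 20), mesoderm and endoderm (0 of 26) or fibroblasts (0 of 18). With 1.04% of coding genes nearest to such a peak, a count of 0 in lists of this size is near the background.

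**Figure D5:**
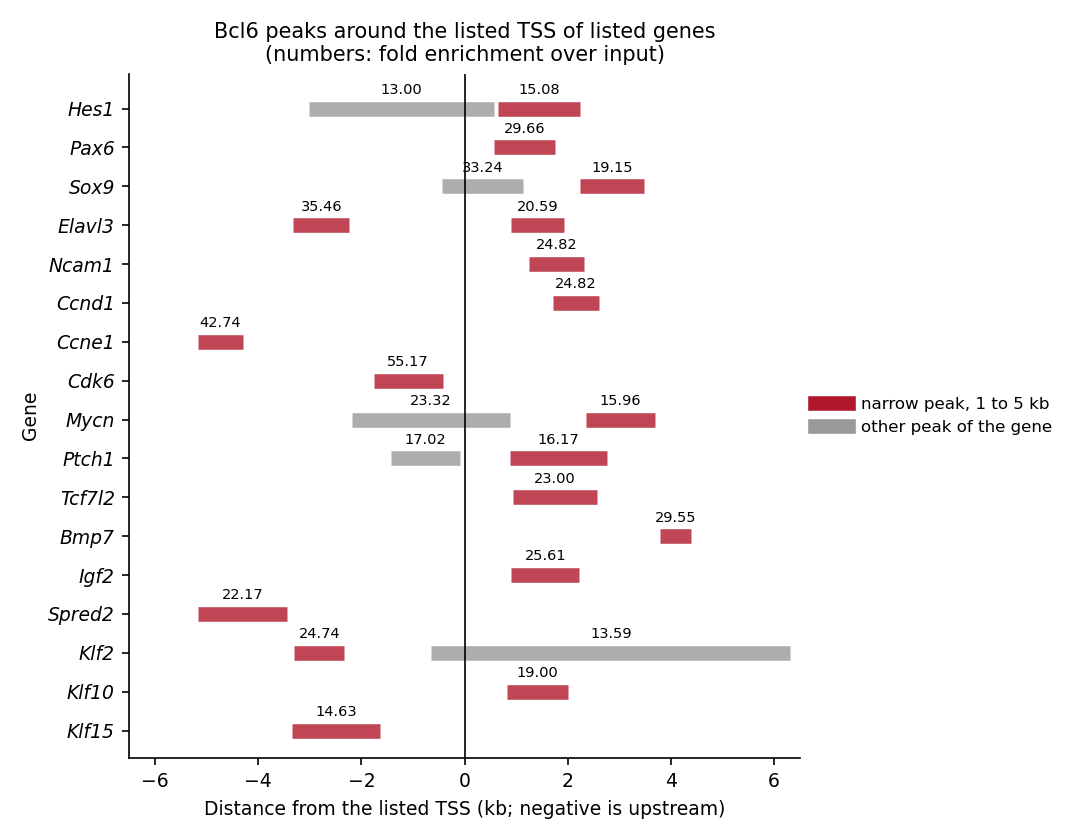
Peaks centred within 5 kb of the listed TSS of listed genes with a narrow 1 to 5 kb peak, as bars from peak start to peak end by distance from the TSS in kb, with the fold enrichment over input above each. Red bars are the narrow 1 to 5 kb peaks and grey bars other peaks of the gene. Cdk6 at 55.17-fold is the highest and Klf15 at 14.63-fold the lowest of the red bars.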

How the data were processed

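Members and gene lists were chosen with earlier results of these data known. The submitters' processing notes name mm10 and Bowtie (version not stated there). Per the file headers, MACS 1.4.2 called peaks on pooled ChIP against pooled input (p-value cutoff 1e-05). Tags per peak are deposited raw counts, of 56836596 ChIP tags (20.6% kept) and 12808138 input tags (39.4% kept). Fold enrichment is the authors' ratio of ChIP to local background over 1000 and 10000 bp. The authors' score is −10 log10 p, its column identified by its place and its minimum. The deposited FDR is a percent. Distances from peak centre to TSS were deposited as output of GREAT 3.0.0, per the file headers.

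Lists were joined by peak number with pandas 2.3.3. Intervals of shares are exact binomial and those of medians come from order statistics, at 95% (scipy 1.17.1), and cover counting only. Gene bodies came from RefSeq, GRCm38.p6 (240 of 243 nearest genes matched). Windows on chromosome 18, which has 4 members, were not used here, and strand was taken from the promoter table (178 peaks) or the gene end at the placed TSS. Named were the 10 highest and 3 lowest folds, the 5 highest scores and tag densities, peaks at each bound, genes with several members, genes of the lists and the 6 most enriched promoter overlaps. Of these last, Gm38896 and Srebf1 are named only. Some genes the rule names are not reported here. Others were named after their values were seen. The member rule was tested on simulated peaks, and the motif search, the overlap and the median interval on other made data.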

Additional observations from a re-analysis of the deposited data

How the results depend on the processing

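Each summary was recomputed under other settings, and of 104 values 80 stayed within their interval or count range. No paired analysis was possible because the authors pooled the libraries before peaks were called, and no library could be left out. Keeping only scores of at least 100 left 31 peaks, with a median of 32.8-fold and 72 tags, 54.8% at 30-fold or more, 96.8% at an FDR of at most 5%, 54.8% upstream (exact 95% interval 36.0 to 72.7%, which holds the main share) and 48.4% in a gene body. A width limit of 1500 bp left 158 peaks (22.7-fold, 39 tags). Without a width limit there were 424 (19.5-fold, 70 tags), with 97.4% at that FDR, 45.8% with a neighbour within 10 kb and 26.3% on a promoter window. An upper distance of 3000 bp left 145 peaks, 100% of them at that FDR. Leaving out peaks with a neighbour within 10 kb, chosen after seeing the data, left 158 peaks, of which 0% had a promoter peak of the same gene, as its construction requires. A promoter range of 500 bp gave 13.2% with such a promoter peak. Neighbours within 5 kb and 20 kb were found for 27.6% and 41.6%. The summit lay inside a promoter window for 5.02%. Apart from settings that remove peaks or windows by construction, the cause was not tested. Tag counts of 22 to 239 from pooled libraries limit the precision of every fold, and a false discovery rate over this set was not computed.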

Other observations

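Fold values repeat across the narrow proximal peaks. Of 243, 133 shared their exact fold with at least 1 other of the set, and 25.61-fold occurred 9 times, at peaks that include those of Igf2, Amd1, Timm13, Nanos1, Ocel1 and Rbm3. The folds 21.28 and 26.6 occurred 8 times each.

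Receptor genes of the vomeronasal and olfactory families were nearest to 2 narrow proximal peaks (0.823%), Vmn1r1 with 62.6-fold on 53 tags and Olfr1342 with 36.6-fold on 32 tags, and to 5 of all 3878 peaks (0.129%).

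For 147 of the 243 peaks the authors' list gave 2 genes, and for 14 the second was also within 5 kb, among them Gyltl1b (now Large2) with Pex16 and Banp with Car5a.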
